A study of Mus musculus with 2 samples.

Results

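The genes described here belong to the interleukin-1 (IL-1) family and were followed through the immune cells of a mouse melanoma: the ligand genes Il1a, Il1b and Il18, the antagonist gene Il1rn, the decoy receptor gene Il1r2, and the receptor genes Il1rl1, Il1rap, Il18r1 and Il18rap. They were taken by symbol from the gene list of both count matrices, and all 9 of the 9 symbols were found among 32285 listed genes. The rule used no measured value, and none of the 9 served as a marker in the cell gates. The choice of genes and gates was still made with earlier results of these data known.

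IL-1 family cytokines are alarm signals. IL-1α and IL-1β act through the IL-1 receptor, IL-33 through ST2 and IL-18 through the IL-18 receptor, and each active complex needs a second chain that carries the signal into the cell. The system has built-in brakes: IL-1 receptor antagonist occupies the receptor without signalling, and the type 2 IL-1 receptor binds IL-1 as a decoy. Neutrophils, monocytes and macrophages are the usual makers of IL-1β, natural killer (NK) cells and effector T cells respond to IL-18, and tissue regulatory T (Treg) cells, group 2 innate lymphoid cells and mast cells are known for ST2.

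The cells were CD45+ DAPI- leukocytes sorted from tumours of mice bearing B16-F0, a transplantable melanoma line, and were profiled with a droplet-based 3' RNA assay that counts unique molecular identifiers (UMIs), each standing for 1 captured RNA molecule. There were 2 libraries, 1 labelled WT (wild type) and 1 labelled KO (knockout). The sources used here do not name the deleted gene, or the strain, age or number of mice behind each library, so the genotype labels could not be checked against a target gene. The labels call the cells tumour-infiltrating Treg cells, but the stated sort takes all living CD45+ cells, and cells of every gate described here were present.

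The matrices held 98438084 UMIs over 11432 WT barcodes and 112544655 UMIs over 11398 KO barcodes, of which 42 barcode sequences occurred in both libraries. After filtering, 11153 and 11131 cells had medians of 5191 and 6360 UMIs. Cells that met the marker gates of more than 1 lineage, 11.9% of WT and 9.15% of KO cells with medians of 17168 and 20129 UMIs, were set aside as likely doublets. These cells held between 24.5% and 56.2% of each gene's UMIs in the WT library and between 17.3% and 46.2% in the KO library. The rest were gated by markers into Treg (241 WT and 505 KO cells), other T (2559 and 3979), NK (1272 and 2221), neutrophil (120 and 19) and myeloid cells (1291 and 2084), with 3535 and 425 B cells as a background population. Erythroid markers summed to between 10.1 and 6684 UMIs per 1000000 UMIs of the gate (CPM) over these 6 gates in the WT library and to between 1.54 and 164 CPM in the KO library, and their part in the results was not tested. The Treg gate did not use Foxp3 and was set on Ikzf2 with Ctla4 or Il2ra. Its levels of Ikzf2 (824 and 871 CPM) and Ctla4 (399 and 415 CPM) therefore follow from the gate. Foxp3 stood at 136 CPM in the WT and only 29.7 CPM in the KO library, in 46.1% and 20.4% of the cells. A Treg gate on Foxp3 instead held 129 WT and 126 KO cells.

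Levels are UMIs summed over the cells of a gate and given as CPM of that gate. Differences are log2 ratios of KO over WT CPM. Brackets hold 95% intervals that cover counting error only. With 1 library per genotype no test was possible and no p-value is given, so a difference between WT and KO cannot be told apart from a difference between any 2 libraries. As a rule of size, a gene was said to pass when it differed by at least 1.5-fold with at least 50 UMIs over both libraries in the gate. Capture of a 3' end differs between transcripts, so levels are compared between cells and not between genes.

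In the mouse genome (GRCm38, GENCODE annotation) the receptor genes lie in a row on chromosome 1, all on the forward strand. Il1r2 spans 40074079 to 40125231, Il1rl1 40429570 to 40465415, Il18r1 40465552 to 40500854 and Il18rap 40515362 to 40551705. Only 136 bases separate the end of Il1rl1 from the start of Il18r1. Il1rap lies on chromosome 16 (26581704 to 26730117), Il18 on chromosome 9 (50554827 to 50581840), and Il1rn (24336853 to 24351494), Il1a (129299610 to 129309972) and Il1b (129364570 to 129371139) on chromosome 2. All 9 are protein coding. Il1r2 overlaps the gene model Gm37347 on its own strand and Gm16894 on the other, and Il1a, Il1b, Il1rap and Il18 overlap genes on the opposite strand. No source used here states whether counting used strand, so these 5 genes could share reads with their neighbours and their values are uncertain to that degree.

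RefSeq start sites on GRCm38.p6 were available for all 9 genes, 14 in number. The 250 bases before the start are printed for Il1b, which had the most UMIs of the 9 genes in either library, and for both starts of Il1rl1, whose KO to WT ratio in other T cells lay farthest from 0 on the log2 scale among the 9 genes. They lie at chr2:129371140-129371389 on the reverse strand for Il1b, and at chr1:40429320-40429569 and chr1:40439379-40439628 on the forward strand for the distal and proximal start of Il1rl1. Each is written 5' to 3' on the strand of the gene, and capitals mark motif matches.
Il1b: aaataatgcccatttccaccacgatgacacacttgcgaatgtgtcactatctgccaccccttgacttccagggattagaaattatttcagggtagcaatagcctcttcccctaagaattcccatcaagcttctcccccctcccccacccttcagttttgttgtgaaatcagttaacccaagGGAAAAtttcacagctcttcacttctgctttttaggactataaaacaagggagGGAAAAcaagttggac
Il1rl1 distal: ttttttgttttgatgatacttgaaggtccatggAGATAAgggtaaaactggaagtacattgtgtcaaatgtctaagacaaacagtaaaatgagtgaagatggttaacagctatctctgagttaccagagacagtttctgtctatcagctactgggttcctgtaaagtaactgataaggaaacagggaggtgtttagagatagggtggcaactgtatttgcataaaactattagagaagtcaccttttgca
Il1rl1 proximal: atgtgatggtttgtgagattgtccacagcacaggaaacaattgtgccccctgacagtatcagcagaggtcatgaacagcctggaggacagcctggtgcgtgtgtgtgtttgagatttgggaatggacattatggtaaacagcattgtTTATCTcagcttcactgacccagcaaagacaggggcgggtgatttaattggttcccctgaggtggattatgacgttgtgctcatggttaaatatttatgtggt

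Both strands of all 14 windows were searched for the AP-1 site (TGANTCA), 1 form of the GATA factor site (AGATAA) and the core bound by NFAT (GGAAAA). The kappa B site (GGG, any 3 bases, TTCC) and the interferon response core (GAAA, any 2 bases, GAAA) were searched as well. Other forms of the GATA site were not searched. Each Il1rl1 window holds 1 match to AGATAA, 217 to 212 bases before the distal start and, on the reverse strand, 103 to 98 bases before the proximal start. The same letters occur in 9.99% of 32851 mouse promoter windows of equal length. Il1b holds 2 NFAT core matches, at 69 to 64 and 16 to 11 bases before its start, against 20.4% of windows with at least 1. AP-1 letters, found in 6.75% of windows, stand before Il1a and 1 start of Il1rn, and kappa B letters (4.65%) before another Il1rn start, where they overlap an NFAT core match. Il1r2, Il1rap, Il18 and Il18rap hold no match. A match is a description of letters, and a 3' count does not tell which start was used.

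**Figure D1:**
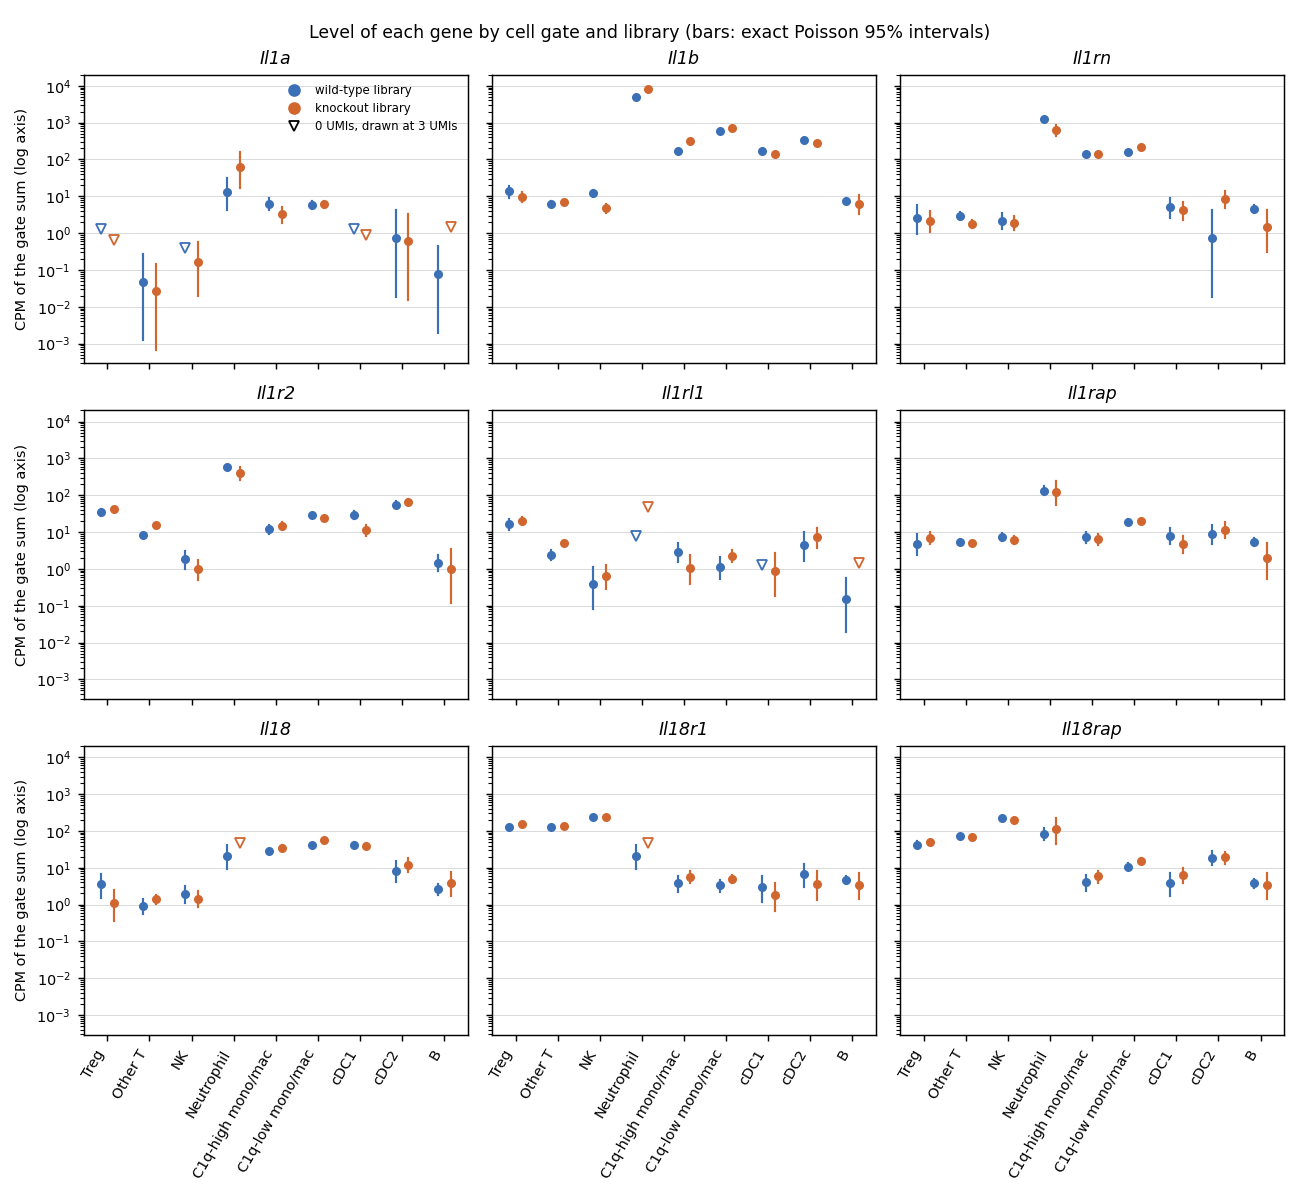
Level of the 9 genes in each gate as CPM on a log axis, with WT in blue and KO in orange, 1 library each; bars are exact Poisson 95% intervals and open triangles mark 0 UMIs, drawn at the level of 3 UMIs. Il1b, Il1rn, Il1r2 and Il1rap were highest in neutrophils in both libraries, Il18r1 and Il18rap in NK cells, and Il1rl1 in Treg cells among the gates drawn.

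Il1b, the gene of the ligand IL-1β, was highest in neutrophils and next in C1q-low monocyte and macrophage cells in both libraries. Neutrophils held 4988 CPM [4764, 5219] in the WT and 8189.5 CPM [7503, 8922] in the KO library, a log2 ratio of 0.72 [0.57, 0.86]. Of the neutrophils, 104 of 120 WT and 16 of 19 KO cells had an Il1b UMI. The median cell carried 3.14 Il1b UMIs per 1000 in the WT and 8.35 in the KO library, with quartiles of 0.955 to 8.02 and 5.43 to 13.5. These quartile ranges overlapped in part, and the KO median lay above the upper WT quartile. Single cells ran from 0 to 29.9 in the WT and from 0 to 29.7 in the KO library. In this gate, where the 19 KO cells carried 63862 UMIs in all, 54.8% of 1163 measured genes passed the 1.5-fold rule and 28.3% did so upward, so Il1b passed among very many genes. With stricter gates its ratio was 0.53, which did not pass.

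Il1rn, which encodes the IL-1 receptor antagonist, had the opposite difference in neutrophils, at 1292 CPM [1180, 1412] in the WT and 626 CPM [447, 853] in the KO library (log2 -1.04 [-1.55, -0.58]). It rested on 486 UMIs in 82 WT cells and 40 UMIs in 11 KO cells. Of all genes in that gate 26.5% passed downward. Il1r2, the decoy receptor, stood at 566 CPM [493, 648] and 407 CPM [266, 597], and Il1rap, the signalling chain shared by the IL-1 and IL-33 receptors, at 133 and 125 CPM. For these last genes the intervals of the ratio included 0. Il1a was seen in neutrophils as 5 WT and 4 KO UMIs. Of the 4 genes measured in neutrophils, Il1b passed upward and Il1rn downward.

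In myeloid cells, meaning monocytes, macrophages and dendritic cells, all 9 genes reached 50 UMIs and 0 passed the 1.5-fold rule, where 6.47% of 11128 genes passed (2.72% upward and 3.75% downward). Their median log2 ratio was 0.32 against -0.03 over all genes measured. Il1b stood at 402 CPM in the WT and 521 CPM in the KO library (0.38 [0.33, 0.42]), Il1rn at 121 and 151 CPM (0.31 [0.24, 0.39]), and Il18 at 34.7 and 44.8 CPM (0.37 [0.22, 0.51]). Il1a, at 83 and 98 UMIs, stood at 4.71 and 4.10 CPM (-0.20 [-0.64, 0.24]). The receptor genes were not alike. Il1rap was at 13.6 and 13.5 CPM and Il1r2 at 26.2 and 23.1 CPM (-0.18 [-0.36, -0.00088]). Il18rap had the ratio farthest from 0 of the 9 genes, at 8.63 and 12.2 CPM (0.50 [0.21, 0.79]). Summed markers in myeloid cells stood at 31.2 and 37.3 CPM for T cells and 6.75 and 8.08 CPM for NK cells. Neutrophil markers went the other way, at 270 and 129 CPM, and the part of these cells in the Il18rap ratio was not tested. Il1rl1, at 29 and 50 UMIs (0.35 [-0.34, 1.06]), and Il18r1, at 64 and 108 UMIs (0.32 [-0.14, 0.78]), had ratios of the ligands' size with intervals that included 0.

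Monocyte and macrophage cells were divided by the share of UMIs from the complement genes C1qa, C1qb and C1qc, at 0.1%, with 68 of 1018 WT and 134 of 1688 KO cells near that value (0.05% to 0.2%). The C1q-low cells, 794 and 1343 in number, held Il1b at 595 CPM [579, 611] and 738 CPM [723, 752]. The C1q-high cells, 224 and 345, held less, at 168 CPM [156, 180] in the WT and 326 CPM [311, 341] in the KO library. The ratio in C1q-high cells, 0.96 [0.83, 1.08], passed the 1.5-fold rule, as did 2.56% of 8836 genes upward. It was 0.91 without the cell richest in Il1b in each library, 0.43 [-0.01, 0.90] with every cell thinned to 1000 UMIs, and 0.35 when mixed cells were returned to the gate of their dominant markers. Summed neutrophil markers in C1q-high cells were lower in the KO library, at 25.2 against 76.6 CPM.

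Il1rn showed no such difference in C1q-high cells. In C1q-high cells it stood at 141.2 CPM [130, 153] in the WT and 141.0 CPM [131, 151] in the KO library, and in C1q-low cells at 164 CPM [156, 173] and 213 CPM [205, 221]. Within C1q-low cells, the levels of Il1rn and Il1b differed with the state of the cell. Cells with a UMI of Arg1, the arginase of alternatively activated macrophages, had 286 against 139 CPM of Il1rn in the WT library and 381 against 184 CPM in the KO library. Il1b was not higher in those cells, at 585 against 597 CPM and 641 against 754 CPM. Cells with a UMI of the inflammasome sensor Nlrp3 instead had more Il1b, 888 against 401 CPM in the WT and 984 against 566 CPM in the KO library. Il1rn was also higher in the Nlrp3+ cells of the WT library, at 193 CPM [179, 208] against 146 CPM [136, 156], while in the KO library it stood at 217 CPM [205, 230] against 211 CPM [201, 221].

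Il18, whose product needs caspase-1 to become active, was a gene of C1q-low cells and of type 1 conventional dendritic cells (cDC1). C1q-low cells held 40.9 CPM [36.9, 45.3] and 55.3 CPM [51.3, 59.4], and cDC1 41.3 CPM [33.5, 50.4] and 40.0 CPM [33.5, 47.4], so these gates did not differ beyond counting error in the WT library. C1q-high cells followed at 27.9 and 35.1 CPM, and type 2 conventional dendritic cells (cDC2) were lower, at 8.28 and 12.2 CPM. Among C1q-low cells, those with a UMI of the monocyte gene Ly6c2 held more Il18, 47.0 against 26.6 CPM in the WT and 61.4 against 36.7 CPM in the KO library. Il1b ran the other way across Ly6c2, at 570 against 654 CPM and 693 against 871 CPM. Of Il18 UMIs outside mixed cells, 86.7% and 91.5% were myeloid.

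Dendritic cells also held Il1b, and their subsets did not share a direction. Il1b stood at 169 CPM in WT and 137 CPM in KO cDC1 (-0.30 [-0.50, -0.11]) and 348 and 287 CPM in cDC2 (-0.28 [-0.47, -0.09]). The cDC1 ratio was 0.08 with stricter gates and 0.66 [-0.24, 1.63] with cells thinned. Mature dendritic cells, those with Fscn1 and Ccr7, went the other way, at 158 CPM [116, 209] in 20 WT cells and 460 CPM [388, 541] in 30 KO cells (1.54 [1.06, 2.05]), where 25.3% of 1578 genes passed upward. Without the richest cell of each library they stood at 119 and 354 CPM. Melanoma markers in these cells summed to 4570 CPM in the WT and 3.15 CPM in the KO library, and their part in the result was not tested. In the 10 WT and 7 KO dendritic cells of no subset, Il1b passed downward, as did 17.1% of 498 genes, with 43 of 53 WT UMIs in 1 cell. Unlike C1q-low cells, cDC1 and cDC2 had little antagonist, with 5.06 and 4.18 CPM of Il1rn in cDC1 and 0.752 and 8.57 CPM in cDC2. Il1r2 in cDC2 stood at 55.7 CPM [43.7, 69.9] and 67.4 CPM [55.4, 81.2], above the levels in C1q-low cells of 29.3 CPM [25.9, 33.0] and 24.2 CPM [21.6, 27.0]. In cDC1 the Il1r2 ratio was -1.40, where 1.73% of genes passed downward, but 1 WT cell held 52 of 69 UMIs and the ratio was 0.33 [-0.58, 1.28] without the richest cell of each library.

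**Figure D2:**
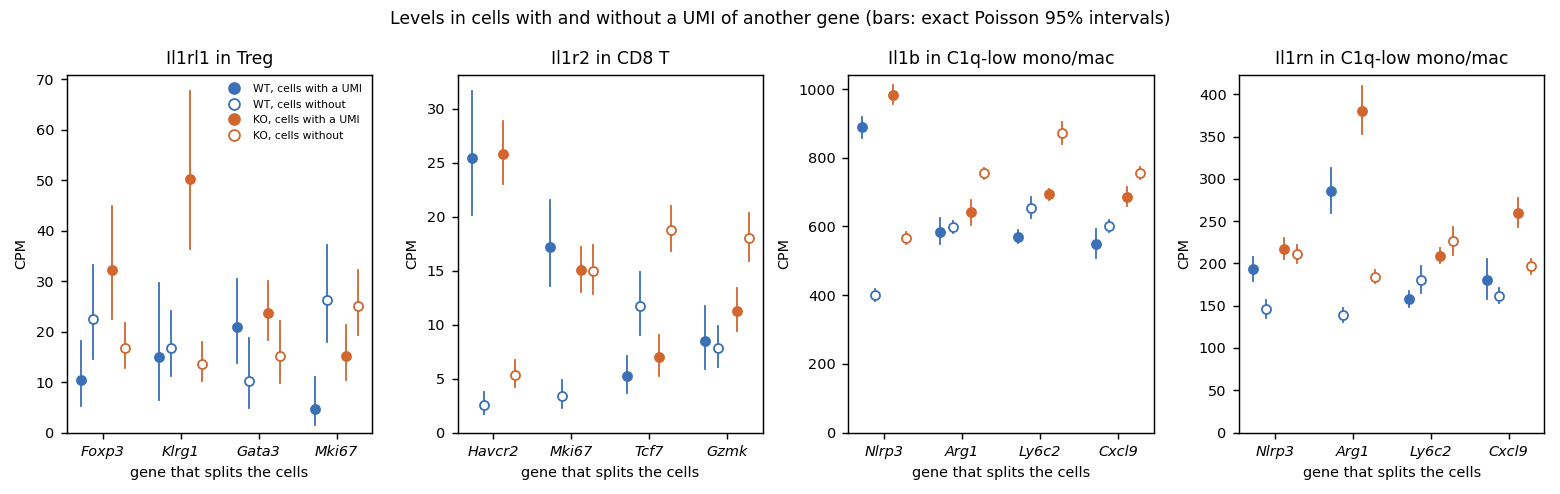
Levels in CPM of Il1rl1 in Treg cells, Il1r2 in CD8 T cells, and Il1b and Il1rn in C1q-low cells, in cells with (filled) and without (open) a UMI of the gene on the x axis, for WT (blue) and KO (orange) libraries; bars are exact Poisson 95% intervals. Il1b was higher with Nlrp3 and Il1rn with Arg1 in both libraries. Il1r2 in CD8 T cells with Havcr2 stood at 25.4 CPM in the WT and 25.8 CPM in the KO library. Without Havcr2 it stood at 2.58 and 5.35 CPM.

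The sources of the ligand RNA were divided differently in the libraries. Neutrophils held 18.1% of the Il1b UMIs outside mixed cells in the WT and 3.73% in the KO library, and myeloid cells 68.3% and 88.8%. For Il1rn the neutrophil part was 15.3% and 1.03%. These shares move with the number of cells in each gate, which was 120 and 19 for neutrophils.

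**Figure D3:**
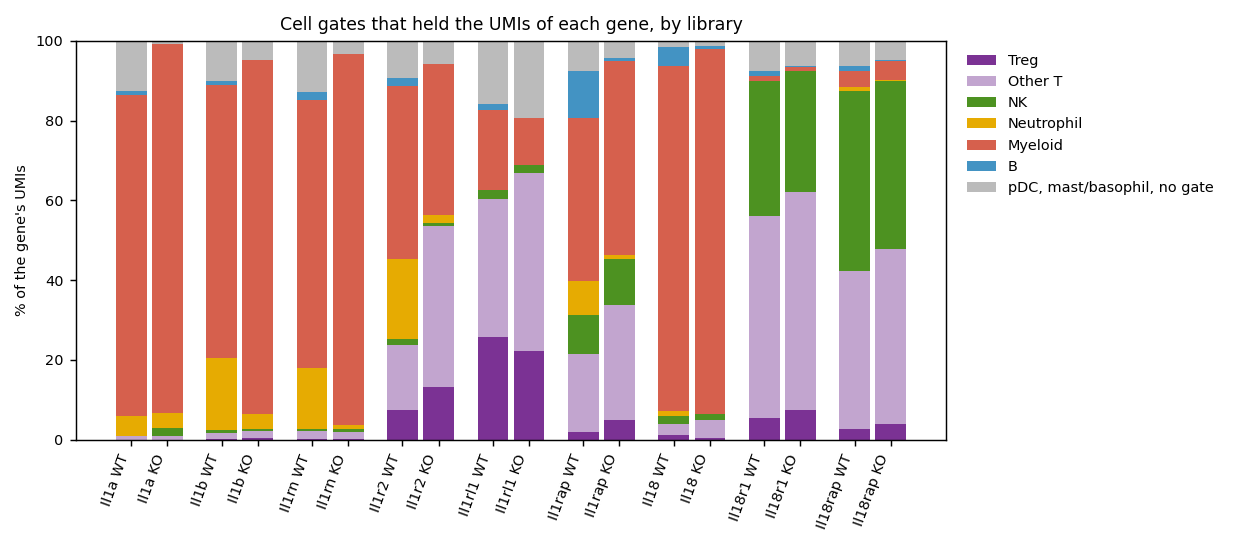
Share of each gene's UMIs, in percent, held by each gate in the WT and KO libraries, over all cells but those of more than 1 lineage. Ligands and Il1rn lay mainly in myeloid cells and neutrophils, Il18r1 and Il18rap in T and NK cells, and the Il1r2 share of other T cells was 16.3% in the WT and 40.3% in the KO library.

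In the T, NK and B cell gates Il1b was far lower. B cells had 7.57 CPM [6.13, 9.23] in the WT and 6.37 CPM [3.39, 10.9] in the KO library, other T cells 6.33 and 7.09 CPM, and Treg cells 13.7 CPM [9.29, 19.4] and 9.59 CPM [6.97, 12.9]. In the WT library Treg and NK cells lay above B cells beyond counting error, and in the KO library none of the Treg, other T and NK gates did. Of the 31 Il1b UMIs in WT Treg cells, however, 17 came from 1 cell. Without the richest cell of each gate, WT Treg cells stood at 6.21 CPM, NK cells at 8.45 CPM and B cells at 5.31 CPM. Cells that met no gate held 315 and 188 CPM. With cells thinned to 1000 UMIs, 0.566% of WT and 0.941% of KO B cells had an Il1b UMI (1.81% and 2.82% unthinned; their medians were 3337 and 3458 UMIs). Other T cells had one in 0.313% and 0.603% (2.93% and 2.87% unthinned; medians of 6135 and 5990 UMIs). Il1b in NK cells was the only gene of the 4 measured there to pass, at 11.9 against 4.69 CPM (-1.35 [-1.85, -0.86]), where 1.68% of 9934 genes passed downward, 2.71% upward and 4.39% either way. In the WT library 27 of its 92 UMIs in NK cells came from 1 cell, and the ratio was -1.03 without the richest cells, -0.26 with mixed cells kept and 0.26 with stricter gates. Summed neutrophil markers in NK cells moved with it, from 87.3 CPM in the WT to 9.30 CPM in the KO library, and their part in the result was not tested.

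**Figure D4:**
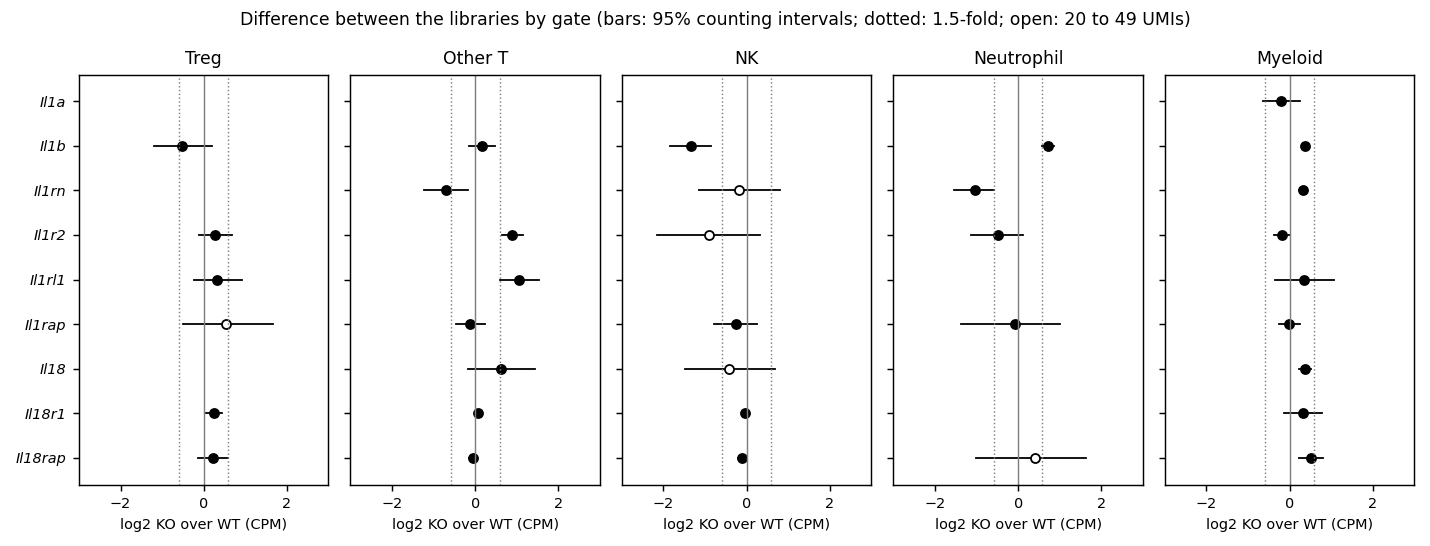
Log2 ratio of KO over WT CPM for each gene in 5 gates, with 95% counting intervals; dotted lines mark 1.5-fold, open circles genes with 20 to 49 UMIs, and genes under 20 UMIs are left out. Il18r1 and Il18rap lay close to 0 in NK and other T cells, and Il1r2 and Il1rl1 lay above 1.5-fold in other T cells.

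Il1r2, whose product captures IL-1 without signalling, was higher with the main gates in T cells outside the Treg gate in the KO library. In other T cells it stood at 8.36 CPM [7.16, 9.71] in the WT and 15.5 CPM [14.3, 16.8] in the KO library (0.89 [0.65, 1.15]), in 66 and 193 cells. There, Il1r2, Il1rl1 and Il18 passed upward and Il1rn downward of 8 genes measured, where 6.62% of 11548 genes passed upward and 3.94% downward (10.6% in all). The median log2 ratio of the 8 was 0.11 and that of all genes 0.08. Il18 and Il1rn passed on few UMIs: Il18, at 0.919 and 1.40 CPM, lay below the B-cell levels of 2.57 and 3.92 CPM. Of the 60 WT UMIs of Il1rn in other T cells, 22 came from 1 cell, and its ratio of -0.71 was -0.36 without the richest cells. Relative to the median ratio between the libraries rather than to the totals, the split over all genes in other T cells was 558 higher and 622 lower instead of 765 and 455. With that scaling the Il1r2 ratio was 0.81. It was 0.10 with cells of more than 1 lineage kept, and 0.55, just under 1.5-fold, when those cells were assigned by dominant markers.

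Among T cells, CD8 T cells had the most Il1r2 UMIs. Their level was 8.02 CPM [6.56, 9.69] in the WT and 15.0 CPM [13.5, 16.6] in the KO library (0.90 [0.59, 1.23]), in 38 of 1393 and 133 of 2144 cells, and 7.88% of 10832 genes passed upward in this gate. With cells thinned, 0.215% [0.0444, 0.628] and 0.700% [0.392, 1.15] of CD8 T cells had an Il1r2 UMI, against 0.170% and 0.235% of B cells. The level depended on cell state. CD8 T cells with a UMI of Havcr2, the exhaustion receptor TIM-3, held 25.4 CPM [20.2, 31.7] in the WT and 25.8 CPM [23.0, 28.8] in the KO library, and those without it 2.58 CPM [1.68, 3.78] and 5.35 CPM [4.19, 6.74].

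Within Havcr2+ CD8 T cells the libraries thus did not differ in Il1r2 beyond counting error. Within CD8 T cells without Havcr2 they did, with intervals that did not overlap. The number of Havcr2+ cells was 169 of 1393 in the WT and 501 of 2144 in the KO library. They were deep cells, at medians of 14448 and 20101 UMIs against 7010.5 and 6415 UMIs without Havcr2, and the part of depth in this split was not tested. Proliferating cells, taken as those with an Mki67 UMI, held 17.2 against 3.41 CPM of Il1r2 in the WT library but 15.0 against 15.0 CPM in the KO library. The Mki67 split also differed in depth, at medians of 13915.5 and 19757 UMIs with it against 6952 and 6430.5 UMIs without. Cells with the progenitor factor Tcf7 held less Il1r2 than cells without it, 5.20 against 11.7 CPM and 6.97 against 18.8 CPM. Cells with a UMI of Ccr7 ran against the Tcf7 split, with more Il1r2 than cells without it, 13.6 CPM [10.4, 17.6] against 5.28 CPM [3.88, 7.03] in the WT and 30.9 CPM [26.3, 36.2] against 11.1 CPM [9.66, 12.6] in the KO library. Summed markers of other cells that hold Il1r2 differed in both directions in CD8 T cells. From the WT to the KO library, 6 neutrophil markers went from 44.2 to 31.5 CPM and 8 monocyte and macrophage markers from 52.5 to 48.9 CPM, but 6 Treg markers from 364 to 495 CPM and 6 dendritic cell markers from 6.35 to 7.26 CPM. All of these markers were detected, and their part in the Il1r2 ratio was not tested.

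CD4 T cells outside the Treg gate had 4.36 CPM [2.09, 8.02] of Il1r2 in the WT and 14.8 CPM [11.3, 18.9] in the KO library (1.76 [0.79, 2.89]), where 8.12% of 7922 genes passed upward. These were 10 UMIs in 3 cells and 63 UMIs in 23 cells, with 16 UMIs in 1 KO cell. The ratio was 0.32 with cells of more than 1 lineage kept. Treg markers summed to 510 CPM in the WT and 756 CPM in the KO library in this gate, and to 494 and 638 CPM over all other T cells, and their part in the Il1r2 ratios was not tested. In T cells without a UMI of Cd4, Cd8a or Cd8b1, 31 of 39 KO UMIs came from 1 cell. Treg cells had the highest Il1r2 level of the lymphoid gates, 34.8 CPM [27.6, 43.4] in the WT and 42.1 CPM [36.4, 48.5] in the KO library (0.27 [-0.11, 0.67]), in 14.9% and 17.0% of cells. NK cells, at 1.82 and 0.970 CPM, were near the B-cell levels of 1.48 and 0.980 CPM.

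Il1rl1, which encodes the IL-33 receptor ST2, was highest among the T and NK gates in Treg cells. It stood there at 16.3 CPM [11.5, 22.5] in the WT and 20.5 CPM [16.6, 25.1] in the KO library, 37 UMIs in 20 cells and 94 UMIs in 50 cells. The log2 ratio of 0.33 [-0.23, 0.92] did not pass, and none of the 5 genes measured in Treg cells did, where 6.56% of 8124 genes passed, 3.29% upward and 3.27% downward. With cells thinned, 1.24% [0.257, 3.59] and 2.18% [1.09, 3.86] of Treg cells had an Il1rl1 UMI, against 0.0566% of WT and 0 of 425 KO B cells, which allows up to 0.706%. A Treg gate on Foxp3 alone gave a ratio of 1.92 [0.97, 2.98], and keeping cells of more than 1 lineage gave 0.01.

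Within the Treg gate, Il1rl1 differed with cell state, and not alike in the libraries. In the KO library Treg cells with a Foxp3 UMI had 32.3 CPM [22.5, 44.9] and those without it 16.8 CPM [12.8, 21.7]. In the WT library the values were 10.4 CPM [5.35, 18.1] and 22.5 CPM [14.6, 33.3], with overlapping intervals. KO cells with a UMI of Klrg1, a marker of effector Treg cells, had 50.2 CPM [36.3, 67.6] against 13.7 CPM [10.2, 18.0] without it, while WT cells had 15.0 CPM [6.49, 29.6] and 16.7 CPM [11.2, 24.0]. Whether these differences themselves differ between the libraries was not tested. Cells with a Klrg1 UMI were also deeper, with medians of 7321 and 6824 UMIs against 6521.5 and 5648 UMIs. Those with a Foxp3 UMI had medians of 6864 and 7823 UMIs against 6425.5 and 5522.5 UMIs. The part of depth in these splits was not tested.

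Other Treg states gave contrasts of varied size. Cells with Gata3, a transcription factor of ST2+ tissue Treg cells, had 20.9 against 10.2 CPM of Il1rl1 in the WT and 23.7 against 15.1 CPM in the KO library, with overlapping intervals. Cells with Areg, the growth factor amphiregulin, had 35.3 against 14.2 CPM and 24.4 against 19.9 CPM, again overlapping. Proliferating cells, those with Mki67, had less Il1rl1, at 4.75 CPM [1.54, 11.1] against 26.3 CPM [18.0, 37.2] in the WT and 15.1 CPM [10.3, 21.3] against 25.1 CPM [19.3, 32.2] in the KO library, where the intervals overlapped. Treg cells with Mki67 were much deeper, at medians of 13298 and 12873.5 UMIs against 5507.5 and 5296 UMIs. Those with Gata3 had medians of 7202 and 7735 UMIs against 6358 and 5157.5 UMIs. The part of depth in these contrasts was not tested. With Il10, the suppressive cytokine, there were 0 Il1rl1 UMIs in 24 WT cells and 10 in 30 KO cells.

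CD4 T cells outside the Treg gate held 4.36 CPM [2.09, 8.02] of Il1rl1 in the WT and 14.1 CPM [10.7, 18.1] in the KO library (1.69 [0.71, 2.82]), from 10 UMIs in 8 of 397 cells and 60 UMIs in 34 of 708 cells. The ratio passed the 1.5-fold rule and lay between 1.05 and 2.06 over the alternatives tried. In the KO library these cells held more Il1rl1 with an Ikzf2 UMI, 31.8 CPM [21.1, 46.0] against 9.45 CPM [6.46, 13.3], and more with Gata3, 22.8 against 7.13 CPM. The WT library showed no such Ikzf2 contrast, at 4.94 CPM [0.598, 17.8] against 4.24 CPM [1.83, 8.35], from 2 and 8 UMIs. With Gata3 the WT values were 8.02 CPM [3.46, 15.8] against 1.54 CPM [0.187, 5.58], from 8 and 2 UMIs, with overlapping intervals. The part of the Treg markers, higher in this gate in the KO library, was not tested for Il1rl1 either. Over all other T cells Il1rl1 stood at 2.42 and 5.003 CPM (1.05 [0.59, 1.53], and 0.41 with mixed cells kept). CD8 T cells had 2.04 and 2.94 CPM, NK cells 0.389 and 0.647 CPM, and neutrophils 0 UMIs, which allows up to 7.98 and 47.0 CPM.

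Il1rap, the chain ST2 needs for signalling, was low in the same cells. It stood at 4.85 CPM [2.42, 8.68] and 6.98 CPM [4.77, 9.85] in Treg cells, 5.51 and 5.08 CPM in other T cells, 7.40 and 6.14 CPM in NK cells, and 5.38 and 1.96 CPM in B cells. In the WT library none of these lymphoid gates differed from B cells beyond counting error. Both chains were seen together in 0 of 241 WT Treg cells, which allows up to 1.24%, and in 5 of 505 KO Treg cells. C1q-low cells, at 19.3 and 19.4 CPM, stood between lymphocytes and neutrophils, and Il1rap passed the 1.5-fold rule in none of the 5 main gates.

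The IL-18 receptor genes Il18r1, the binding chain, and Il18rap, the signalling chain, marked NK cells and T cells and were nearly level between the libraries. Il18r1 stood at 237 CPM [226, 248] in WT and 232 CPM [223, 240] in KO NK cells (-0.03 [-0.11, 0.06]), and at 132 and 137 CPM in other T cells (0.06 [-0.01, 0.12]). Treg cells had 129 CPM [114, 144] and 153 CPM [142, 164] (0.25 [0.05, 0.45]), a WT level that other T cells matched within counting error. The Treg ratio was -0.22 [-0.75, 0.34] with cells thinned. B cells had 4.76 and 3.43 CPM and myeloid cells 3.63 and 4.52 CPM.

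Il18rap had a steeper order, with NK cells above other T cells and other T cells above Treg cells in both libraries. NK cells held 217 CPM [207, 228] and 201 CPM [193, 209] (-0.11 [-0.20, -0.02]), other T cells 71.4 CPM [67.8, 75.1] and 68.5 CPM [65.9, 71.2], and Treg cells 42.3 CPM [34.3, 51.7] and 49.3 CPM [43.1, 56.1]. B cells had 3.82 and 3.43 CPM. Neutrophils, which had little Il18r1 (8 and 0 UMIs), held Il18rap at 82.4 CPM [56.0, 117] and 110 CPM [44.1, 226].

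Among T cells, the chains ordered the subsets differently. Il18r1 was 196 CPM [182, 211] and 192 CPM [180, 204] in T cells without Cd4 or Cd8, 185 CPM [168, 204] and 234 CPM [220, 249] in CD4 T cells outside the Treg gate, and 104 CPM [99.0, 110] and 108 CPM [104, 113] in CD8 T cells. Il18rap was 94.3 and 83.4 CPM, 60.2 and 71.9 CPM, and 66.7 and 67.1 CPM in the same order, so CD4 and CD8 T cells did not differ in it beyond counting error. The only interval of these ratios that lay clear of 0 was that of Il18r1 in CD4 T cells (0.34 [0.17, 0.50]). CD4 T cells with a UMI of Ccr7, the homing receptor of naive and central memory cells, held less Il18r1, 78.6 against 240.1 CPM in the WT and 145 against 248 CPM in the KO library. In CD8 T cells Ccr7 went with less Il18rap, 39.0 against 80.2 CPM and 51.5 against 70.9 CPM, while Il18r1 stood at 97.0 against 108 CPM and 101 against 110 CPM.

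Both IL-18 receptor chains were detected in the same cell in 45.9% [43.1, 48.7] of WT and 40.9% [38.8, 43.0] of KO NK cells. The KO cells were shallower, with a median of 4717 against 5306.5 UMIs, and at 1000 UMIs per cell the shares were 5.42% [4.24, 6.82] and 5.18% [4.29, 6.18]. CD8 T cells had both chains in 18.5% and 25.7% of cells, but in 0.933% and 0.886% after thinning. Treg cells had both in 17.4% and 20.6%, or 1.66% and 1.19% after thinning, and B cells in 0.255% and 0.235%, or 0 cells after thinning, which allows up to 0.0849% and 0.706%. After thinning, the intervals of the libraries overlapped in NK, CD8 T and Treg cells. Within NK cells, those with Klrg1, a marker of mature NK cells, had less Il18r1, 153 CPM [127, 183] against 246 CPM [235, 258] in the WT and 141 CPM [123, 161] against 245 CPM [235, 254] in the KO library.

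The rest of the pathway was read from a list of 32 symbols, of which 28 were found. Il36a, Il36b, Il36g and Il36rn were not found, but they name the same genes as Il1f6, Il1f8, Il1f9 and Il1f5, which were. In Treg cells 15 could be measured and 1 passed, upward, a share near the 6.56% of all genes there. It was Casp1, the protease that activates IL-1β and IL-18, at 24.2 against 46.0 CPM (0.92 [0.49, 1.38]). In other T cells 1 of 19 passed, where 10.6% of all genes did: Il1r1, the signalling IL-1 receptor, which was low and lower in the KO library at 2.18 against 1.32 CPM (-0.72 [-1.33, -0.10]). In NK cells 0 of 15 passed, against 4.39% of all genes. In neutrophils Il1f9, the IL-36γ gene, was higher (194 against 376 CPM, 0.95 [0.22, 1.64]) and the kinase Irak2 lower (226 against 94.0 CPM) of 3 measured, in a gate where most genes passed.

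In myeloid cells 22 of the 28 were measured, 1 passed upward and 1 downward, where 6.47% of all genes passed. Il18bp, the secreted IL-18 binding protein that neutralises IL-18, was higher in the KO library at 21.7 against 11.7 CPM (0.89 [0.65, 1.13]), from 519 and 207 UMIs, where 2.72% of genes passed upward. Il1r1 was lower, at 1.38 against 2.67 CPM from 33 and 47 UMIs. The inflammasome genes Casp4 (0.54 [0.42, 0.66]) and Casp1 (0.41 [0.30, 0.52]) were below 1.5-fold, and none of the 8 inflammasome and processing genes or of the 10 signalling genes passed. Il33, the ligand of ST2, gave 1 UMI in each library in myeloid cells and 3 and 4 UMIs in other T cells. Stromal and epithelial cells, its usual makers, carry no CD45.

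By likeness of their levels over 11 non-overlapping gates in both libraries, 22 points that share libraries and depth, the genes closest to Il18r1 among 4711 were Skap1, Hcst and Il2rb (Pearson r = 0.98 for each). Those closest to Il18rap were Ifngr1, Crim1 and Wipf1 (0.95 for each), and those closest to Il1b were Igsf6, Krt80 and Ear2 (0.98 for each). Il1rl1 had looser matches, Pigx (0.84), Eva1b (0.82) and Batf (0.81). These values describe the gates, and neutrophils were not among them because the KO library held only 19.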

How the data were processed

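Each library came as 1 deposited matrix of raw UMI counts (genes by barcodes), not normalized. Cell Ranger 5.0.0 is named per the file headers, and Cell Ranger, STAR and the mm10 genome per the submitters' processing notes. No source used here states the annotation release or the strand setting of the counting. Cells were kept from 500 detected genes and 1000 UMIs upward, up to a mitochondrial share of 10%, and gated by the number of marker genes with a UMI. Counts were summed per gate and library and scaled to CPM in Python with numpy 2.4.6, scipy 1.17.1 and pandas 2.3.3. Gate sums carry exact Poisson intervals, shares exact Clopper-Pearson intervals, and ratios exact conditional binomial intervals, all at 95% and for counting error only. A count of 0 allows up to 3 UMIs.

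Treg cells were T cells with Ikzf2 and Ctla4 or Il2ra and without Cd8a, Cd8b1 or Trdc. T cells with both Cd4 and Cd8 UMIs, 92 WT and 175 KO cells, stayed among other T cells. Cells meeting gates of more than 1 lineage were removed as likely doublets. The main gates removed no cells by a doublet caller, and removing those with the highest Scrublet scores (scanpy 1.11.5, 0.8% per 1000 barcodes) as well was an alternative. Other alternatives were no cell filter, stricter gates, other Treg gates, mixed cells kept, thinning to 1000 UMIs per cell, median-of-ratios scaling, other UMI minimums and leaving out the richest cell. Stricter gates asked for 1 more marker per lineage, so fewer cells counted as mixed and some gates grew. In the WT library Treg cells then numbered 264 instead of 241 and other T cells 2637 instead of 2559, while neutrophils fell from 120 to 79. Assigning mixed cells by dominant markers was added after seeing the data. The size rule was tested on simulated counts, but no outcome of that test is given here and it is not used as support. All 9 genes are described in every main gate, other pathway genes come from a fixed list, and the 3 genes of closest pattern were taken by Pearson correlation of log2(CPM + 1) among genes of at least 50 CPM in 1 gate, over gates with at least 50 cells per library. Genes, lists and gates were chosen with earlier results of these data known. Figures were drawn with matplotlib 3.10.9. Promoter sequences and start sites are RefSeq's, and gene positions come from GENCODE by gene identifier.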

Additional observations from a re-analysis of the deposited data

Results flagged for a closer look

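Il1b differed in opposite directions in neutrophils and NK cells, past 1.5-fold in each, and this difference between the gates was not tested. The log2 ratio of KO over WT was 0.72 in neutrophils, from 1876 UMIs in 120 WT cells and 523 UMIs in 19 KO cells, and -1.35 in NK cells, from 92 and 58 UMIs. With stricter gates the ratio was 0.53 in neutrophils and 0.26 in NK cells, so the opposite directions did not hold there. Summed neutrophil markers in NK cells stood at 87.3 CPM in the WT and 9.30 CPM in the KO library, and their part in the result was not tested.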

How the results depend on the processing

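No paired analysis was possible because each genotype had 1 library, and leaving out a replicate could not be run for the same reason. The main limits are that no value has a replicate check, that KO neutrophils numbered 19, and that mixed cells held up to 56.2% of a gene's UMIs. All values below are log2 ratios of KO over WT, and the cause of each shift was not tested. Several ratios turned. Il1b in T cells without Cd4 or Cd8 (0.62) became -0.32 without the cell filter, -0.38 with stricter gates, -0.90 with Scrublet cells removed and -0.050 with mixed cells kept. Il1b in NK cells became 0.26 with stricter gates, Il18 became -0.19 in other T and -0.18 in CD8 T cells with mixed cells kept, and Il1r2 in cDC1 became 0.33 without the richest cells.

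Stricter gates gave Il1b 0.53 in neutrophils and 0.48 in myeloid cells, and Il1rn -1.61 in neutrophils. Scrublet removal gave Il1b 0.43 in myeloid cells. A Treg gate on Foxp3 gave 0.89 for Il1r2, 1.92 for Il1rl1 and 0.51 for Il18r1. Keeping mixed cells gave Il1r2 -0.17 and Il18r1 0.52 in Treg cells, and Il18r1 0.22 and Il18rap 0.17 in other T cells. Thinning to 1000 UMIs gave Il18r1 -0.22 in Treg cells, Il18rap -0.25 in NK cells, Il1rn -1.66 and Il1r2 -1.30 in neutrophils, and Il1b 0.15 and Il18 0.22 in myeloid cells. Scaling by the median of ratios gave Il18r1 -0.024 in other T cells. Assigning mixed cells by dominant markers (at least 80%), chosen after seeing the data, gave Il1b 0.86 in neutrophils and 0.44 in myeloid cells, and Il1rn 0.19 in myeloid cells.

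At a minimum of 20 UMIs, 1165 genes in Treg, 845 in NK, 1415 in neutrophil and 1196 in myeloid cells passed 1.5-fold, against 533, 436, 637 and 720 at 50 UMIs. At 200 UMIs the numbers were 67 in Treg, 661 in other T (1220 at 50), 97 in NK, 174 in neutrophil and 299 in myeloid cells.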

Other observations

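Outside the 5 main gates, Il1rl1 and the IL-18 receptor genes were seen in a few mast cells or basophils, gated on Cpa3, Mcpt8, Ms4a2, Fcer1a and Gata2. These were 18 WT and 8 KO cells, in which all 4 T-cell markers were at 0 UMIs. Il1rl1 stood there at 158 CPM [81.6, 276] in the WT and 560 CPM [337, 874] in the KO library, from 12 and 19 UMIs, the highest level of any gate in both libraries. Of the 19 KO UMIs, 13 came from 1 cell, and without the richest cell of each library the levels were 110.0 and 228 CPM. The gate held 8.33% and 4.49% of Il1rl1 UMIs outside mixed cells. Il18rap stood at 395 and 530 CPM, above the NK levels of 217 and 201 CPM. Il18r1 stood at 211 CPM [120.3, 342] and 354 CPM [183, 617], and these Il18r1 intervals included the NK level in each library. Il1b and Il1r2 were at 0 UMIs.

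A rule of at least 3 among Gata3, Il7r, Rora, Il5, Il13, Areg and Il2ra in cells of no other gate was meant for group 2 innate lymphoid cells. It found 40 WT and 64 KO cells whose T-cell markers summed to 1478 and 1943 CPM, so they are given no cell type here. They had 4 and 22 Il1rl1 UMIs, or 16.2 CPM [4.42, 41.6] and 66.5 CPM [41.7, 101]. Their Il1b, 57 WT and 16 KO UMIs, came mostly from 1 cell in each library, with 36 and 14 UMIs.

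Cells with both Il1b and Il1rn UMIs made up 28.5% of WT and 31.6% of KO C1q-low cells, or 5.29% [3.84, 7.08] and 5.96% [4.75, 7.36] at 1000 UMIs per cell. In cDC1 they were 3.57% and 1.37%, and 0 cells of either library at 1000 UMIs. B cells had Il1rn at 4.60 and 1.47 CPM, from 59 and 3 UMIs.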
